A study of Mus musculus with 12 samples.

Results

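The Bcl2 family of survival and death genes was examined in plasmablasts (PBs) and splenic plasma cells (PCs) of mice. The 10 genes were chosen by name, with earlier results of these data known, and all were found among the 24189 genes that the files of all 10 RNA-seq libraries share. They comprise 4 pro-survival genes (Bcl2, Bcl2l1, Bcl2l2 and Mcl1), 4 BH3-only genes (Bcl2l11, Bbc3, Pmaip1 and Bid) and 2 effector genes (Bax and Bak1). All mice are labelled as strain C57BL/6, their ages are not given in the sources used here, and each of the 5 RNA-seq groups consists of 2 libraries. The PBs were grown from splenic CD43- B cells on 40LB feeder cells, a cell line that presents CD40 ligand and BAFF, first with IL-4 for 4 days and then with IL-21 for 4 days, and were sorted on day 8 by surface markers that included the presence of CD138 and the absence of CD23. One PB group carried the floxed Xbp1 allele without Cre (Xbp1 fl/fl, called control PBs), a further group carried Cd23-Cre as well (Cd23-Cre Xbp1 fl/fl, called Xbp1-deficient PBs), and the last group had CreER inserted into both Bhlha15 alleles (Bhlha15 CreER/CreER, called CreER/CreER PBs). The PCs came from spleens taken on day 7 after immunization with the antigen NP-KLH and were isolated by sorting for TACI and CD138. Their donors were mice of the genotype Cd23-Cre Bhlha15 fl/fl, whose cells are called Mist1-deficient PCs, or control mice, which the labels call wildtype and the study lists as Bhlha15 fl/fl, an allele that also carries a biotin acceptor tag. Bhlha15 encodes the transcription factor Mist1, and Xbp1 encodes a transcription factor of the unfolded protein response. Cd23-Cre deletes floxed alleles from the immature B cell stage onwards, so that deletion begins before B cells become PBs or PCs. None of the control groups is labelled as carrying Cre. Mist1 binding was mapped in 2 Bio-ChIP-seq experiments with PBs from Bhlha15 fl/fl R26 BirA/BirA mice after 4 days of stimulation with LPS.

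The Bcl2 family decides whether mitochondria release cytochrome c, the step that commits most cells to apoptosis. The effectors Bax and Bak1 form pores in the outer mitochondrial membrane, the pro-survival proteins bind and restrain them, and BH3-only proteins, which are induced or activated by stress, engage the pro-survival proteins or the effectors themselves. Plasma cells are known to depend on Mcl1, whereas Bcl2l1, the gene of Bcl-xL, is prominent in activated B cells. Bcl2l11 encodes Bim, Bbc3 encodes Puma and Pmaip1 encodes Noxa, of which the last binds mainly Mcl1. Many of these proteins are controlled by phosphorylation and degradation, which RNA does not show.

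Mist1-binding regions were present at every one of the 10 genes, although such regions are common in the genome. Regions common to both Bio-ChIP-seq experiments numbered 23806, and 10 of 10 members had one within 10 kb, compared with 80.9% of the 10938 protein-coding genes with at least 1 TPM (a length-corrected share of all transcripts of a library) in at least 2 PB libraries and 54.0% of all 22372 protein-coding genes. A region that reached to within 1 kb of a transcription start site (TSS) was found at 8 members, all except Pmaip1 and Bak1, compared with 63.0% of the expressed genes. A region that overlapped the gene body was found at 8 members and at 70.5% of the expressed genes, and one in the gene body or within 2.5 kb of a TSS at the same number and at 72.5%, so that the members' shares were near those of expressed genes. Bcl2, the longest of the members with a span of 176097 bp, had 15 regions, Bcl2l1 had 11 over 64413 bp, Mcl1 and Bid had 5 each, Bcl2l11 had 4, and Bcl2l2, Bbc3 and Bax had 3 each. Pmaip1 and Bak1 had 1 region each, both upstream of the gene. The peak lists give positions alone, without height. They hold fewer peaks than the study describes, so that all counts of regions refer to the shorter lists and no region here does not mean that none was called.

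**Figure D1:**
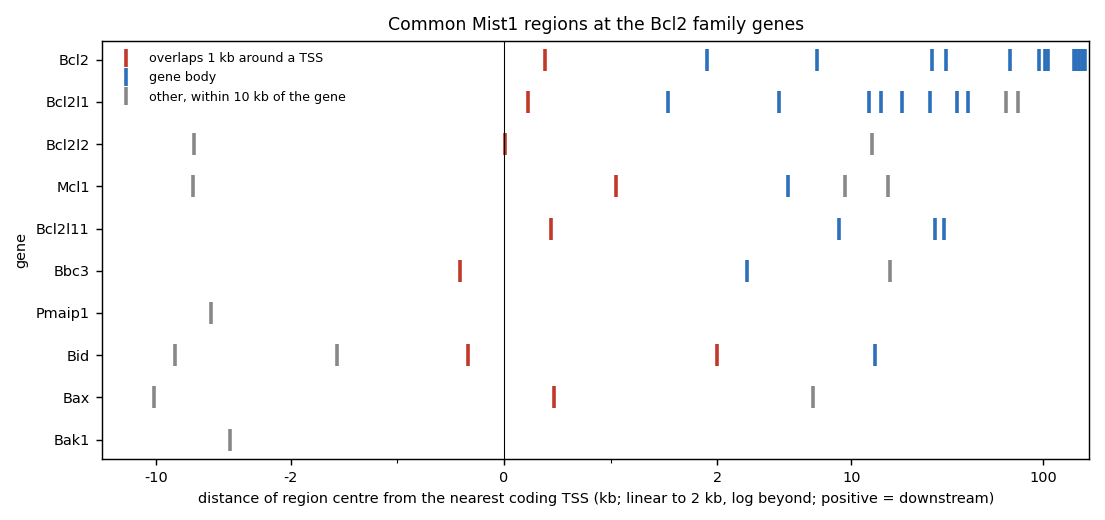
Each mark is the centre of a Mist1 region common to both Bio-ChIP-seq experiments, placed by its distance in kb from the nearest coding TSS of the gene (linear to 2 kb, logarithmic beyond, positive downstream). Red marks overlap the 1 kb around a TSS, blue marks lie in the gene body and grey marks elsewhere within 10 kb of the gene, and the 15 regions of Bcl2 and 11 of Bcl2l1 extend far into both genes.

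Mist1 is a basic helix-loop-helix factor, and factors of this class bind the E-box, which is spelled CANNTG. The E-box CAGCTG was present in the central 200 bp of 27.9% of the common regions, and an E-box of any kind in 76.7%. A stretch of 120 bp is shown for each of the 3 members whose expression passed the test in Mist1-deficient PCs, which are described further on. Stretches were taken outside annotated exons from common regions at a TSS or in the gene body. Chosen was the stretch with the most CAGCTG, and among equals that with the most E-boxes of any kind. The sequences were read from the mm9 genome on the strand of the gene, 5′ to 3′, and capitals mark every E-box. The Bcl2l1 stretch lies at chr2:152641600-152641719 on the minus strand, between exons of the gene and centred 14387 bp downstream of the nearest coding TSS. The Bcl2l2 stretch lies at chr14:55502920-55503039 on the plus strand, outside exons and centred 345 bp downstream of the nearest coding TSS. The Bbc3 stretch lies at chr7:16899167-16899286 on the plus strand, outside exons and centred 3422 bp downstream of the nearest coding TSS.
Bcl2l1: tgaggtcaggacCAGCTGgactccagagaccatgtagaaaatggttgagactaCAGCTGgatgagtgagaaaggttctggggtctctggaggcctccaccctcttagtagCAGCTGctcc
Bcl2l2: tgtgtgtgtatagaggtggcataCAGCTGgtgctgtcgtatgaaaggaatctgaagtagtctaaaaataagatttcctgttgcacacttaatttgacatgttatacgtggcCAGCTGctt
Bbc3: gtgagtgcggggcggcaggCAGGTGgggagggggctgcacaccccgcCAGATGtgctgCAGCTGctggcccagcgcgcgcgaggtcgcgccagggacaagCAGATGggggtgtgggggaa
All 3 E-boxes of the Bcl2l1 stretch and both of the Bcl2l2 stretch read CAGCTG, whereas 1 of the 4 in the Bbc3 stretch does. As the stretches were chosen for CAGCTG, these counts follow from the choice. They cannot be set against the 27.9%, which refers to the centres of all common regions. The match of these letters is a description and does not show which of them Mist1 occupied. The regions come from LPS-stimulated PBs, a different culture from that of the RNA-seq PBs.

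All RNA values below are TPM as deposited unless a scaled value is named. Bhlha15 was at 258 and 242 TPM in the 2 control PC libraries and at 14.4 and 16.6 TPM in the Mist1-deficient PC libraries, and at 176 and 159 TPM in control PBs compared with 0.210 and 0.551 TPM in CreER/CreER PBs. Xbp1 was at 3168 and 3043 TPM in control PBs and at 1981 and 2024 TPM in Xbp1-deficient PBs, and as the files hold 1 value for the whole gene, the deleted part of Xbp1 is not seen separately. In the latter PBs Bhlha15 was at 3.57 and 2.60 TPM, so that they lacked most Mist1 mRNA as well. All 8 plasma cell markers found in the files were at or above 1 TPM in every library, with summed levels of 91316 to 98451 TPM in PCs, 21029 and 21660 TPM in Xbp1-deficient PBs and 38371 to 41820 TPM in the other PBs. Igj was the highest of these markers in every library, and Xbp1 itself is among the 8. Of 10 fibroblast markers, 8 or 9 reached 1 TPM in PB libraries, which grew on feeder cells, with sums of 956 to 1895 TPM led by Col1a1, whereas the sums were 25.7 to 31.4 TPM in PCs. The 12 neutrophil and myeloid markers together were at 625 to 1113 TPM in PCs, at 136 and 137 TPM in Xbp1-deficient PBs and at 6.75 to 14.7 TPM in the other PBs, with S100a8, S100a9 and Camp at 0 in CreER/CreER replicate 2. The 10 T and NK cell markers together reached 80.3 to 114 TPM in PCs and 8.43 to 13.6 TPM in PBs, where Cd8a and Ncr1 were at 0 throughout. In bulk RNA, fewer cells of a type and less RNA per cell cannot be told apart.

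Mcl1 was the most abundant member by TPM in every library, with higher levels in PCs than in PBs, whereas Bcl2l1 was lower in PCs than in PBs. Mcl1 was at 1088 and 1073 TPM in control PCs, 1114 and 1034 TPM in Mist1-deficient PCs, 642 and 623 TPM in control PBs, 750 and 807 TPM in Xbp1-deficient PBs and 634 and 636 TPM in CreER/CreER PBs. In order of the mean, both PC groups overlapped at the top and CreER/CreER and control PBs overlapped at the bottom, with Xbp1-deficient PBs between and apart from both. This separation of Xbp1-deficient PBs held in deposited TPM only, as after scaling of the libraries they overlapped both other PB groups. Bcl2l1 was at 297 and 301 TPM in Xbp1-deficient PBs, 201 and 186 TPM in CreER/CreER PBs, 153 and 144 TPM in control PBs, 57.5 and 49.5 TPM in Mist1-deficient PCs and 39.4 and 40.2 TPM in control PCs. None of these 5 groups overlapped its neighbour in that order. Bcl2, the founding member of the family, was at 24.8 and 27.8 TPM in control PCs and 25.1 and 31.3 TPM in Mist1-deficient PCs, which overlapped, and at 7.33 to 14.2 TPM in the 6 PB libraries. Bcl2l2, the gene of Bcl-w, ranged from 20.6 TPM in a Mist1-deficient PC library to 58.5 TPM in a control PB library.

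**Figure D2:**
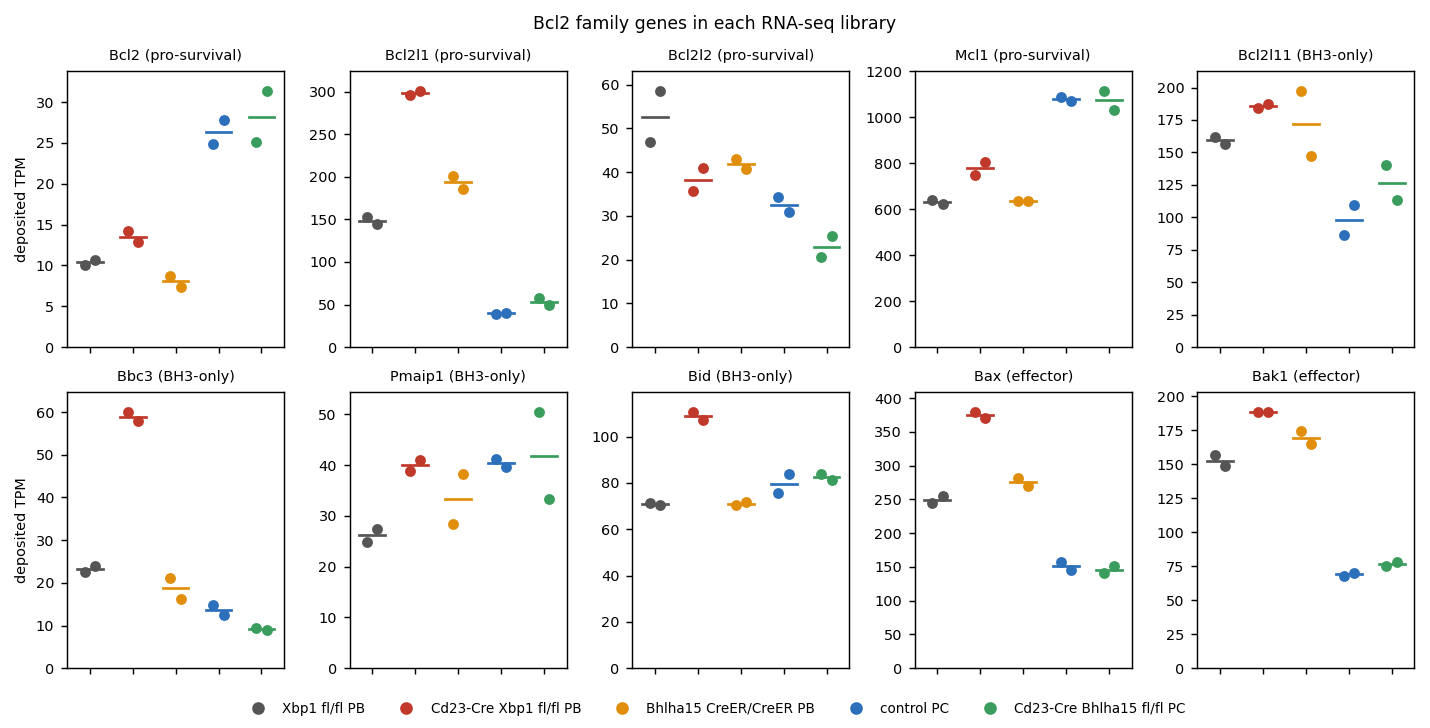
Deposited TPM (linear axes from 0) of the 10 members in each library, with points for the 2 libraries of a group and a line at their mean. Bcl2l1, Bak1 and Bax lie lower in all PC libraries than in all PB libraries, Mcl1 and Bcl2 lie higher, and Bbc3 stands highest in the Xbp1-deficient PBs at 60.0 and 57.9 TPM.

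As shares within a library do not depend on the scaling of libraries, the make-up of the pro-survival group was compared directly. Mcl1 accounted for 91.6 ± 0.108% (SD, n = 2) of the summed TPM of the 4 pro-survival genes in control PCs and 91.1 ± 0.594% (SD, n = 2) in Mist1-deficient PCs. Its share was 74.9 ± 0.636% (SD, n = 2) in control PBs, 72.3 ± 1.09% (SD, n = 2) in CreER/CreER PBs and 68.9 ± 0.756% (SD, n = 2) in Xbp1-deficient PBs. Bcl2l1 made up most of the remainder in PBs, with 17.6 ± 0.482% in control, 22.0 ± 0.873% in CreER/CreER and 26.5 ± 0.814% in Xbp1-deficient PBs (SD, n = 2 each). In PCs, Bcl2l1 contributed 3.37 ± 0.0816% in the control and 4.53 ± 0.269% in the Mist1-deficient PC group (SD, n = 2 each). Control PCs thus held 27.6 and 26.7 Mcl1 transcripts for each Bcl2l1 transcript by TPM, whereas control PBs held 4.20 and 4.31 and Xbp1-deficient PBs held 2.53 and 2.68. The ratio of Mcl1 to Bcl2l11, the gene of a BH3-only protein that Mcl1 binds, was 12.6 and 9.82 in control PCs, 7.94 and 9.14 in Mist1-deficient PCs and 3.21 to 4.32 in the PB libraries.

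**Figure D3:**
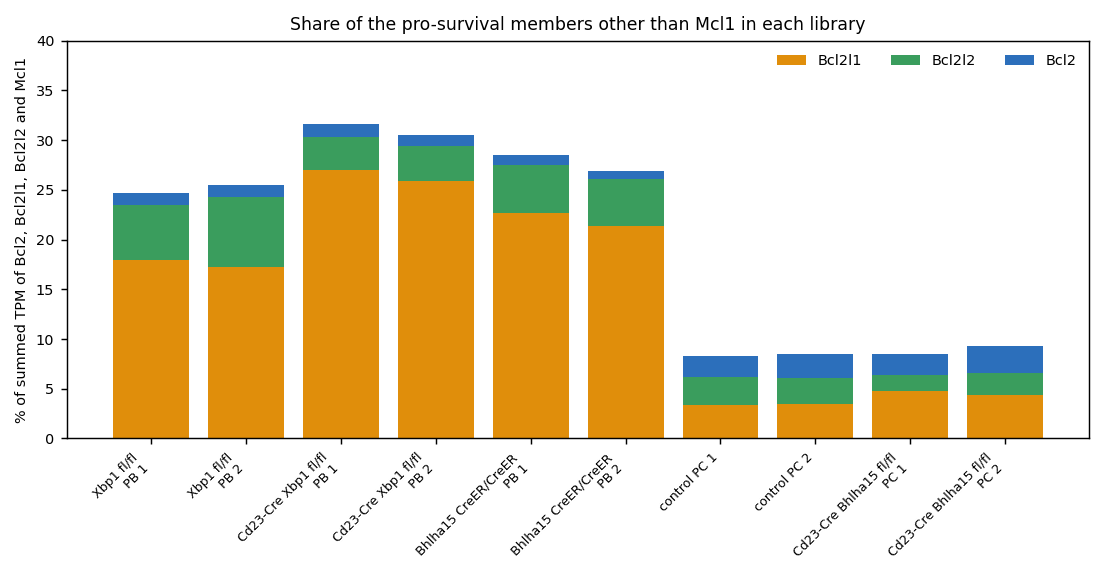
Stacked bars give, for each library, the percentage of the summed TPM of Bcl2, Bcl2l1, Bcl2l2 and Mcl1 that belonged to the genes other than Mcl1, so that the part above each bar up to 100% is Mcl1 (the axis ends at 40%). Bcl2l1 takes 25.9% and 27.0% in the Xbp1-deficient PBs and no more than 4.73% in any PC library.

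The first comparison asked how the loss of Xbp1 affected these genes in PBs. In Xbp1-deficient PBs, 4 members rose relative to control PBs, the BH3-only genes Bbc3 and Bid, the effector Bax and the pro-survival gene Bcl2l1, and Bcl2l2 fell. Bbc3, whose product binds all pro-survival proteins, was at 22.6 and 24.0 TPM in control and 60.0 and 57.9 TPM in Xbp1-deficient PBs. Both Xbp1-deficient libraries thus stood well above the controls, and after scaling by the median of ratios the gene was 2.18-fold higher on the log2(scaled TPM + 0.1) scale, as are all fold changes below (log2 fold change 1.13, SE 0.10, adjusted p = 7.64e-05 by limma). Bcl2l1, given above for every library, was 1.74-fold higher (log2 fold change 0.80, SE 0.08, adjusted p = 0.00015). Bid, whose product is cleaved by caspase-8 to link death receptors to mitochondria, was at 71.3 and 70.6 TPM in the controls and 111 and 107 TPM in Xbp1-deficient PBs (log2 fold change 0.41, SE 0.08, adjusted p = 0.00721). Bax was at 244 and 254 TPM compared with 379 and 370 TPM (log2 fold change 0.38, SE 0.07, adjusted p = 0.0061). These changes were below the 3-fold rule of the study, as was the fall of Bcl2l2 from 46.9 and 58.5 TPM to 35.6 and 40.9 TPM (1.58-fold, log2 fold change -0.66, SE 0.10, adjusted p = 0.00202). Exons of Bcl2l2 overlap those of Gm20521 on the same strand, so that the division of reads between both genes is uncertain.

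The other 5 members did not pass the test. Pmaip1 was at 24.9 and 27.4 TPM in control and 38.9 and 41.1 TPM in Xbp1-deficient PBs, without overlap, but with a wide interval (log2 fold change 0.40, 95% interval 0.03 to 0.78, adjusted p = 0.101). The log2 fold changes were 0.17 for Bcl2 (adjusted p = 0.31), 0.09 for Mcl1 (adjusted p = 0.529), 0.09 for Bak1 (adjusted p = 0.422) and 0.02 for Bcl2l11 (adjusted p = 0.933). Among all 12125 genes tested, 28.3% were called, 10.3% higher and 18.0% lower, and against this background 4 higher and 1 lower of 10 members were counted. The median log2 fold change of the members was 0.27 compared with 0.00414 for all genes, and 0 members were past the study's rule of more than 3-fold, which 1.87% of the genes met.

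The size of these differences depended on the scaling of libraries. In TPM as deposited, all genes together had a median of 0.21 on the log2 scale, and Mcl1 (0.30), Bak1 (0.30) and Pmaip1 (0.61) were then called higher as well, giving 7 higher and 1 lower member, as they were after quantile normalization. Over all genes the split moved from 1250 higher and 2186 lower with scaling to 3423 higher and 1357 lower without it and 2511 higher and 1965 lower with quantile normalization. Bbc3, Bcl2l1 and Bcl2l2 were called under all 13 alternatives. Bax was not called when either control PB library or Xbp1-deficient PB replicate 1 was left out, with adjusted p of 0.0506 to 0.0609, and Bid was not called without control PB replicate 2 (adjusted p = 0.0682), which left 3 called members. The neutrophil and myeloid markers tested, 6 of 6, were higher in Xbp1-deficient PBs, and 4 of 8 plasma cell markers were lower. Among the latter was Xbp1 itself, the deleted gene, besides Mzb1, Igj and Tnfrsf17. Not called were Prdm1 (log2 fold change 0.28), Irf4 (0.25), Tnfrsf13b (0.01) and Sdc1 (-0.25). The summed levels are given above, and the part of these markers in the differences of the members was not tested.

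**Figure D4:**
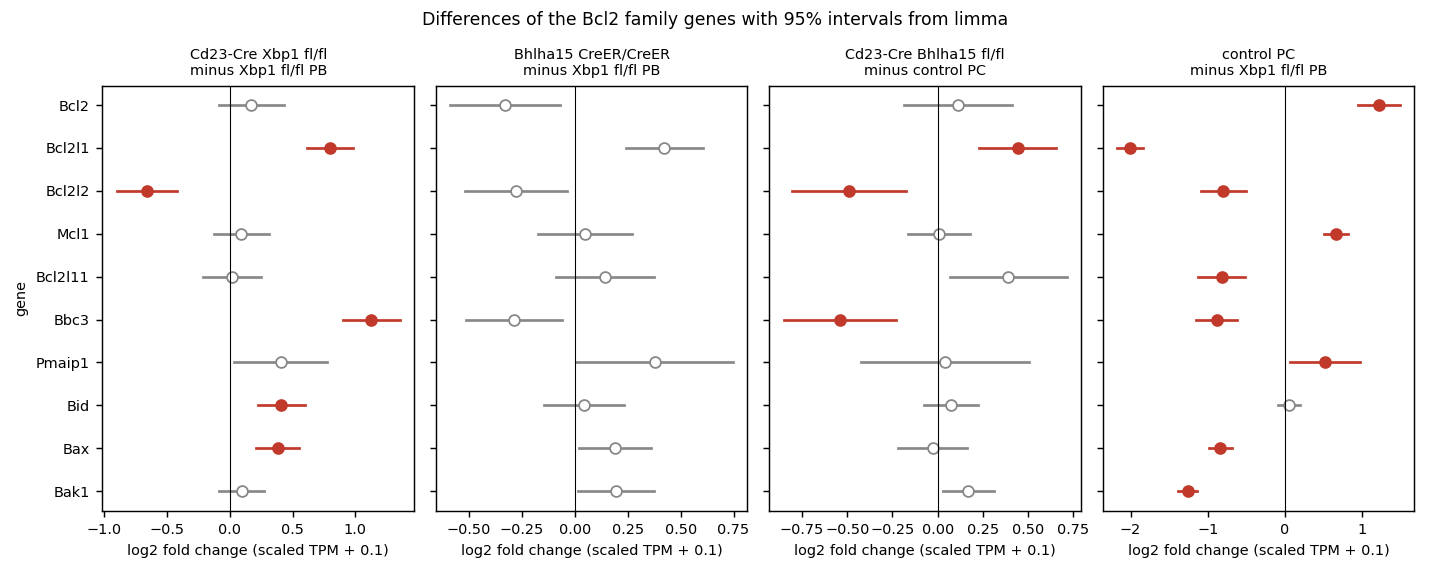
Log2 fold changes of the 10 members on the scale of log2(scaled TPM + 0.1) with 95% intervals from limma in 4 comparisons, with a separate horizontal scale for each panel. Filled red points have an adjusted p under 0.05 over all genes and open grey points do not, with 5, 0, 3 and 9 filled points from left to right.

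Genes that act on the family were examined next in the same comparison. Of the 69 related genes tested, 24 were called (34.8%), 8 higher and 16 lower, compared with 28.3% of all genes, 10.3% higher and 18.0% lower. Those named were picked for the largest changes of each list, in the same libraries from which the study took its Xbp1-regulated genes. Of 14 regulators of BH3-only genes, 5 rose and 0 fell. Ddit3, the gene of the ER stress factor Chop, increased from 71.9 and 100 TPM to 299 and 291 TPM (log2 fold change 1.59, adjusted p = 3.23e-05), and Trib3, a pseudokinase gene induced by Chop and ATF4, from 11.8 and 12.6 TPM to 58.5 and 53.0 TPM (1.97, adjusted p = 3.78e-06). Trp73, a relative of the p53 gene, was at 2.88 and 2.93 TPM compared with 7.93 and 8.61 TPM (1.27, adjusted p = 0.000964), and Foxo1, a factor known to induce Bcl2l11 and Bbc3, was at 74.5 and 68.5 TPM compared with 124 and 145 TPM (0.70, adjusted p = 0.00113). In each of these genes both Xbp1-deficient libraries stood above both controls, but such separation was a condition for naming a gene of these lists. Trp53, which was outside the rule for named genes and is given for its known role at Bbc3, Pmaip1 and Bax, was not called (log2 fold change 0.21, SE 0.07, adjusted p = 0.0742). Of 11 ER death and calcium genes, 1 rose and 6 fell, with Ern1, the gene of the ER stress sensor Ire1, at a log2 fold change of 1.66 (adjusted p = 1.87e-05) and Eif2ak3, the gene of the sensor Perk, at -1.57 (adjusted p = 3.91e-06).

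**Figure D5:**
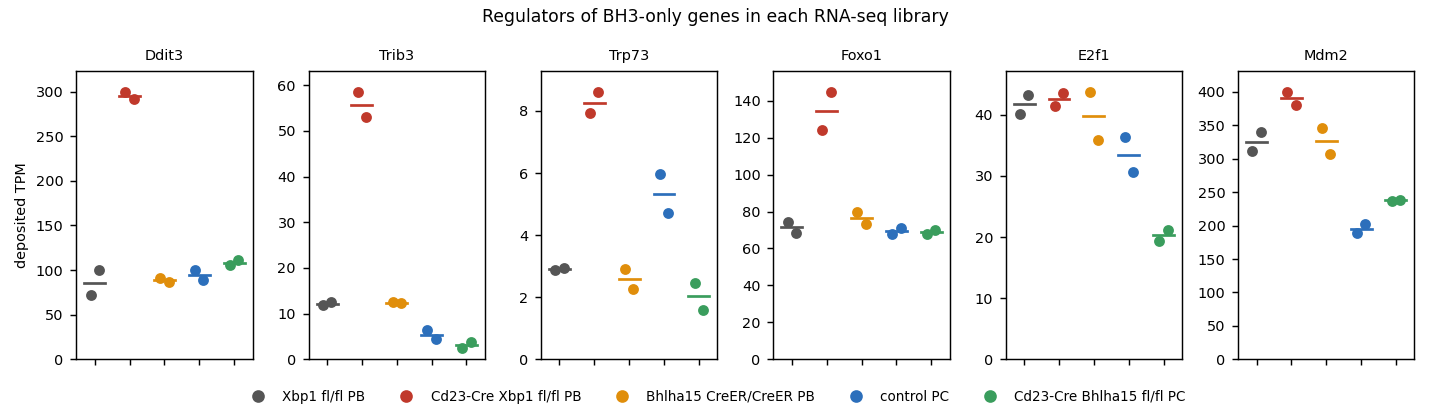
Deposited TPM (linear axes from 0) of 6 regulators of BH3-only genes in each library, with points for the 2 libraries of a group and a line at their mean. Ddit3, Trib3 and Foxo1 are highest in both Xbp1-deficient PB libraries, and E2f1 is lowest in the Mist1-deficient PC libraries.

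Among all genes tested in this comparison, 18.0% were lower and 10.3% higher, and the counts of each list below stand beside these shares. Downstream of the mitochondria, 5 of 14 genes of the apoptosome, caspases and their inhibitors fell in Xbp1-deficient PBs and 0 rose. The decrease was greatest for Endog, a mitochondrial nuclease gene at 5.74 and 5.23 TPM compared with 3.05 and 2.26 TPM (log2 fold change -1.23, adjusted p = 0.00161), followed by the mitochondrial protease gene Htra2 (-0.66, adjusted p = 0.00105) and the caspase inhibitor genes Birc2 (-0.56, adjusted p = 0.00116) and Birc3 (-0.34, adjusted p = 0.00871). Birc3 lost its call in TPM as deposited (adjusted p = 0.125) and without control PB replicate 1 (0.0915) or Xbp1-deficient PB replicate 2 (0.0535). Of 8 death receptor genes, Cflar, which encodes an inhibitor of caspase-8, fell from 25.0 TPM in both control libraries to 16.0 and 17.6 TPM (-0.78, adjusted p = 0.00423), and Tnfrsf10b, the gene of the TRAIL receptor, rose (0.47, adjusted p = 0.0496) but was not called when any one library was left out. Usp9x, which encodes a deubiquitinase that stabilizes Mcl1, fell from 54.7 and 51.6 TPM to 36.5 and 41.8 TPM (-0.65, adjusted p = 0.00242) as 1 of 2 genes that fell among 12 genes of Mcl1 turnover and mitochondrial partners, in which 1 gene rose. Of 16 other Bcl2 family genes, 10 were tested, 2 fell and 0 rose. These were Bmf, a BH3-only gene (-0.36, adjusted p = 0.0284), which was not called when any one library was left out, and Bcl2a1b (-0.35, adjusted p = 0.0367), whose reads cannot be told apart with certainty from those of its near-identical copies and which lost its call likewise. In TPM as deposited neither was called (adjusted p = 0.335 and 0.449).

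CreER/CreER PBs were then set against the same 2 control PB libraries. 0 of 10 members passed the test with limma, compared with 0.322% of all genes, or 39 of 12125, and 7 members had an unadjusted p under 0.05 compared with 1267 genes. The difference nearest to the threshold was that of Bcl2l1, which was at 153 and 144 TPM in control and 201 and 186 TPM in CreER/CreER PBs (log2 fold change 0.42, 95% interval 0.24 to 0.60, adjusted p = 0.0973). It was called in TPM as deposited (adjusted p = 0.0368) and after quantile normalization (adjusted p = 0.049). Bbc3 was at 21.2 and 16.1 TPM (log2 fold change -0.29, adjusted p = 0.366) and Bcl2 was at 8.74 and 7.33 TPM (-0.33, adjusted p = 0.372), in both cases below the 2 controls. Bcl2l2 was at 43.0 and 40.8 TPM (-0.28, adjusted p = 0.413). Pmaip1 was at 28.4 and 38.3 TPM, and without CreER/CreER replicate 1 it was called (log2 fold change 0.67, adjusted p = 0.0301). Bid, at 70.4 and 71.6 TPM, overlapped the controls, with a 95% interval of -0.15 to 0.23 for the log2 fold change. Of the related genes listed above, Htra2 alone was called, at 38.5 and 37.1 TPM compared with 64.4 and 65.8 TPM (log2 fold change -0.74, adjusted p = 0.0194), and this call was lost when either control PB library (adjusted p = 0.267 and 0.138) or CreER/CreER replicate 1 (0.0548) was left out.

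As both mutants shared their controls, they were also compared with each other, a comparison added after the values were seen. Bbc3 was 2.67-fold higher in Xbp1-deficient than in CreER/CreER PBs (log2 fold change 1.42, SE 0.10, adjusted p = 2.13e-05). Bcl2, at 14.2 and 12.9 TPM compared with 8.74 and 7.33 TPM (0.50, adjusted p = 0.0125), Bcl2l1 (0.38, adjusted p = 0.00876) and Bid (0.37, adjusted p = 0.0124) were higher as well, and Bcl2l2 was lower (-0.38, adjusted p = 0.0271). These 4 higher and 1 lower members compare with 9.34% higher and 17.8% lower, or 27.1% in all, among all genes, and 0 members met the 3-fold rule, which 1.90% of genes met. Bbc3 was called under all 13 alternatives. The other 4 calls each failed without at least 1 library. Without Xbp1-deficient PB replicate 1, Bcl2 (adjusted p = 0.102), Bid (0.0741) and Bcl2l2 (0.152) were not called and the count was 2, whereas Bcl2l1 was not called without Xbp1-deficient PB replicate 2 (0.0543) nor Bcl2l2 without CreER/CreER replicate 2 (0.0922). In TPM as deposited, where the median log2 difference of all genes was 0.26 and their split moved from 1132 higher and 2155 lower to 3977 higher and 1266 lower, Bcl2l2 lost its call (adjusted p = 0.371) and Mcl1 (0.29) and Bax (0.44) were called higher, giving 6 higher members and 0 lower.

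The next comparison asked how the loss of Mist1 affected the family in splenic PCs. Bcl2l1 rose in Mist1-deficient PCs, and Bcl2l2 and Bbc3 fell. Bcl2l1 was at 39.4 and 40.2 TPM in control PCs and at 57.5 and 49.5 TPM in Mist1-deficient PCs (1.36-fold, log2 fold change 0.44, SE 0.09, adjusted p = 0.0155 by limma). Bcl2l2 was at 34.2 and 31.0 TPM compared with 20.6 and 25.3 TPM (log2 fold change -0.49, SE 0.13, adjusted p = 0.0361), and Bbc3 at 14.7 and 12.6 TPM compared with 9.36 and 9.04 TPM (log2 fold change -0.54, SE 0.13, adjusted p = 0.0264). These 3 genes are those whose Mist1-region sequences are given above. Their groups did not overlap, but in scaled values neither did those of Bcl2l11, Bid and Bak1, which were not called. How many of all genes had groups without overlap was not counted. The 1 higher and 2 lower members compare with 13.3% higher and 16.2% lower, or 29.5% in all, among the 12028 genes tested, so that the share of members called was close to that of all genes. The median log2 fold change of the members was 0.06 and that of all genes 0.01, and 0 members met the 3-fold rule, which 0.848% of genes met.

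Among the members that did not pass, Bcl2l11 was at 86.7 and 109 TPM in control and 140 and 113 TPM in Mist1-deficient PCs (log2 fold change 0.39, 95% interval 0.07 to 0.71, adjusted p = 0.0725), and Bak1 at 67.7 and 70.2 TPM compared with 75.1 and 78.1 TPM (0.17, adjusted p = 0.075). Mcl1 had a log2 fold change of 0.01 with a 95% interval of -0.16 to 0.18 (adjusted p = 0.933). The corresponding values were 0.11 for Bcl2 (adjusted p = 0.517), 0.07 for Bid (adjusted p = 0.402), -0.03 for Bax (adjusted p = 0.808) and 0.04 for Pmaip1 (adjusted p = 0.889), which was at 50.4 and 33.3 TPM in the Mist1-deficient PC libraries, on either side of the control values of 41.2 and 39.6 TPM. The calls in PCs rest on few libraries. Without Mist1-deficient PC replicate 1 none of the 3 was called (adjusted p = 0.0936 for Bcl2l1, 0.158 for Bcl2l2 and 0.0986 for Bbc3), without control replicate 1 Bcl2l1 alone was called, without Mist1-deficient PC replicate 2 Bbc3 was not (adjusted p = 0.137), and without the trend in eBayes none was. Without control replicate 2, Bcl2l11 was called as well (log2 fold change 0.53, adjusted p = 0.0254). Of 9 B cell markers 2 were lower, among them Ms4a1 (log2 fold change -0.44, adjusted p = 0.0386), and the T cell marker Cd3d was higher (0.64, adjusted p = 0.0389) in Mist1-deficient PCs, and their part in the differences of the members was not tested.

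Of the 68 related genes tested in these PCs, 24 were called (35.3%), 15 higher and 9 lower, compared with 29.5% of all genes, 13.3% higher and 16.2% lower. Those named below were picked for the largest changes of each list, so that their size cannot be set against that of the members. Htra2 fell from 145 and 134 TPM to 28.6 and 31.9 TPM (log2 fold change -2.18, SE 0.09, adjusted p = 0.000748), and Endog rose from 3.99 and 6.55 TPM to 18.2 and 17.3 TPM (1.79, SE 0.21, adjusted p = 0.00386). They were among 2 higher and 3 lower genes of the 14 of the apoptosome and caspase list, of which Birc5, the gene of survivin (-0.52, adjusted p = 0.00617), and the caspase gene Casp6 (-0.48, adjusted p = 0.00912) fell, with calls that were lost without 1 or the other Mist1-deficient PC library (adjusted p of 0.06 for Birc5 and 0.0562 and 0.0732 for Casp6). Htra2 belongs to the genes that the study selected on these same libraries, so that its fall is not independent evidence. The other differences named here, among them that of Endog, come from the same libraries too. Of 8 death receptor genes 1 rose and 1 fell. Fas was at 24.1 and 25.7 TPM compared with 12.6 and 13.4 TPM (-0.91, adjusted p = 0.00213), and Tnfrsf10b at 1.81 and 2.04 TPM compared with 3.85 and 3.22 TPM (0.86, adjusted p = 0.0305), which was not called without control replicate 1 or either Mist1-deficient PC library (adjusted p of 0.067 to 0.196). Of 14 regulators of BH3-only genes 2 rose and 3 fell. The former were Mdm2, the gene of the ubiquitin ligase of p53 (0.30, adjusted p = 0.0106), whose call was lost without either Mist1-deficient PC library (0.0936 and 0.12), and Trp53 (0.27, adjusted p = 0.0186), which is given outside the rule for named genes as before. The latter included E2f1, at 36.4 and 30.7 TPM compared with 19.4 and 21.2 TPM (-0.70, adjusted p = 0.0108), and Trp73, at 5.97 and 4.72 TPM compared with 2.47 and 1.59 TPM (-1.35, adjusted p = 0.017). Both groups were apart for E2f1 and Trp73, which was a condition for naming them. The call of E2f1 was lost without Mist1-deficient PC replicate 1 (log2 fold change -0.63). That of Trp73 was lost without control replicate 1 (-1.16) or Mist1-deficient PC replicate 2 (-1.06). Of the 12 genes of Mcl1 turnover and mitochondrial partners 4 rose and 0 fell, and all 4, Fbxo4, Vdac2, Bag6 and Tpt1, lost their calls without either Mist1-deficient PC library (adjusted p of 0.0873 to 0.253). Of the 10 ER death and calcium genes tested 3 rose and 2 fell, and of the 10 other Bcl2 family genes tested 3 rose and 0 fell. The last were Bcl2l12 (0.44, adjusted p = 0.0345) and the BH3-only genes Bad (0.38, adjusted p = 0.0273) and Bmf (0.33, adjusted p = 0.0353), of which Bcl2l12 and Bad lost their calls without control replicate 1 or either Mist1-deficient PC library and Bmf without control replicate 2 or either Mist1-deficient PC library (adjusted p of 0.0543 to 0.215).

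Whether the loss of Mist1 had a different effect in PCs than in PBs was tested as the difference between the PC contrast and that of CreER/CreER PBs in a model of all 10 libraries. 0 of 10 members passed with limma, compared with 6.11% of 13230 genes, 1.94% higher and 4.17% lower and 0.348% past the 3-fold rule, and 1 member, Bcl2, had an unadjusted p under 0.05 compared with 2905 genes. For Bcl2 the log2 difference was 0.46 (95% interval 0.07 to 0.85, adjusted p = 0.162). For Bcl2l1, whose log2 fold change was 0.42 in PBs and 0.44 in PCs, it was 0.03 (95% interval -0.20 to 0.27, adjusted p = 0.897). For Bbc3 it was -0.24 (95% interval -0.62 to 0.14, adjusted p = 0.461) and for Bcl2l2 -0.20 (95% interval -0.60 to 0.21, adjusted p = 0.576). The split over all genes was 257 higher and 552 lower, and 529 higher and 679 lower after quantile normalization, with 0 members called in each case. The Bhlha15 alleles and the controls differ between both stages, which cannot be told apart from the stage.

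Control PCs were finally compared with control PBs, a contrast in which stage, culture, sorting and control genotype cannot be told apart. Bcl2, Mcl1 and Pmaip1 were higher in PCs, and the other members except Bid were lower. Bcl2l1 had the greatest difference of the members, 4.03-fold lower in PCs (log2 fold change -2.01, SE 0.07, adjusted p = 4.5e-08 by limma), and was the 1 member past the 3-fold rule, which 14.0% of genes met. Of the effectors, Bak1 was at 67.7 and 70.2 TPM in PCs compared with 157 and 149 TPM in PBs (-1.26, adjusted p = 9.16e-08) and Bax at 157 and 145 TPM compared with 244 and 254 TPM (-0.84, adjusted p = 3.05e-06). Of the BH3-only genes, Bbc3 was at 14.7 and 12.6 TPM compared with 22.6 and 24.0 TPM (-0.88, adjusted p = 0.00011) and Bcl2l11 at 86.7 and 109 TPM compared with 162 and 156 TPM (-0.82, adjusted p = 0.00037). Among the pro-survival genes, Bcl2 was 2.33-fold higher (log2 fold change 1.22, adjusted p = 1.57e-05), Mcl1 1.58-fold higher (0.66, adjusted p = 2.64e-05) and Bcl2l2 1.74-fold lower (-0.80, adjusted p = 0.000334) in PCs.

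Pmaip1 was at 41.2 and 39.6 TPM in control PCs compared with 24.9 and 27.4 TPM in control PBs (log2 fold change 0.51, adjusted p = 0.0412), and this call was lost when any one of the 4 libraries was left out (adjusted p = 0.0779 to 0.148). Bid, at 75.5 and 83.8 TPM in PCs, was not called (0.05, 95% interval -0.09 to 0.20, adjusted p = 0.472). The counts of 3 higher and 6 lower members compare with 37.6% higher and 38.4% lower, or 76.0% in all, of 13230 genes. The median log2 fold change was -0.81 for the members and 0.00643 for all genes. Without scaling, the latter was 0.12 and Bid was called higher (0.17, adjusted p = 0.0293). Of the 8 death receptor genes 5 were lower, among them Tnfrsf10b (-2.23), Fas (-1.96) and Tnfrsf1a (-1.92), and Cflar was higher (0.61), with adjusted p of 3.09e-06, 3.51e-08, 4.76e-06 and 0.00227, respectively. Of the 14 genes of the apoptosome and caspase list, 6 were lower and 3 higher in PCs, among the latter Htra2 (0.98, adjusted p = 1.22e-05) and Birc2 (0.88, adjusted p = 2.37e-06). The BH3-only relative Bnip3 was at 1.47 and 2.03 TPM compared with 50.2 and 60.7 TPM (-5.03, adjusted p = 1.51e-06), among 7 lower and 4 higher of 11 other Bcl2 family genes tested. The regulators of BH3-only genes included 4 higher and 7 lower of 14, the genes of Mcl1 turnover 2 higher and 7 lower of 12 and the ER genes 3 higher and 6 lower of 11. Together, 55 of the 70 related genes tested were called (78.6%), 17 higher and 38 lower, compared with 76.0% of all genes. All 9 fibroblast markers tested were lower and all 12 neutrophil and myeloid and all 9 T and NK cell markers tested were higher in PCs, and their part in these differences was not tested.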

How the data were processed

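The authors trimmed the RNA-seq reads with cutadapt, aligned them with STAR 2.4.2 to mm9, assigned them to genes with featureCounts 1.5, left out immunoglobulin and T cell receptor genes and deposited TPM (transcripts scaled to 1000000 per library). TPM keep no read number, so that depth is unknown and counting error cannot be given. The strand setting of the counting is not given in the sources used here, and exons of Bcl2, Bcl2l2, Bid and Bak1 overlap other genes. The deposited peak lists of Mist1 (aligned with Bowtie 1.0.0, called with MACS) hold start and end positions per experiment, 29413 and 30247 peaks.

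TPM were scaled by the median of ratios. Genes that reached 1 TPM in 2 or more libraries of a model (6 PB, 4 PC or all 10 libraries) were fitted on log2(scaled TPM + 0.1), which understates the change of low genes, with limma 3.58.1 in R 4.3.3 (eBayes with trend). A gene was called at a Benjamini-Hochberg adjusted p under 0.05 over all genes of the model. The 3-fold rule also asks for more than 5 TPM in the higher group. Replicate numbers follow the accession order and only name libraries. A two-sided exact permutation test of 2 against 2 libraries cannot go below p = 0.333. The study speaks of 2 independent RNA-seq experiments for each genotype of its Xbp1 and Mist1 comparisons. Nothing states that libraries came from separate mice, so that p-values measure the spread between libraries, part of which may be technical. Peaks sharing at least 1 bp were merged (bedtools 2.31.1) and placed by GENCODE M1. All members were named. Of each other list, up to 4 genes per contrast with the largest absolute log2 fold change among called genes with separate libraries could be named, besides Xbp1, Bhlha15 and the genes most similar in pattern to 4 members. The members and lists were chosen with earlier results of these data known.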

Additional observations from a re-analysis of the deposited data

Results flagged for a closer look

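Among 70 genes tested that act with the Bcl2 family, 4 (5.71%, compared with 6.11% of all genes) differed between the PC contrast and that of CreER/CreER PBs. This was the test of the difference itself in the model of all 10 libraries. The Bhlha15 alleles, the controls and the culture differ between both contrasts as well, which cannot be told apart from the stage. The log2 fold change in PCs minus that in PBs was -1.43 for Htra2 (adjusted p = 0.00261 by limma), which was called lower in both stages, in PBs with a call that depended on single libraries. As said above, the study selected Htra2 on the same PC libraries. It was -0.85 for Fas (adjusted p = 0.00516), which was at 83.1 and 84.8 TPM in CreER/CreER PBs compared with 87.1 and 92.0 TPM in control PBs. The difference was -0.65 for E2f1 (adjusted p = 0.0384) and -0.52 for Birc5 (adjusted p = 0.0159), whose calls were lost when 6 and 3 of the 8 libraries, respectively, were left out in turn, and that of E2f1 also without the filter on low values or without the trend.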

How the results depend on the processing

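Each result was recomputed from TPM as deposited, after quantile normalization, with a pseudocount of 1 or 0.01, with no filter or one of 5 TPM, with eBayes without trend or robust, with only the libraries compared (not run for the contrasts involving the PC mutants) and with each library left out, the last with a lone library assumed to vary like the other groups. The 22 member differences that passed the test kept their direction in all 283 refits and their call in 250. Called members in Xbp1-deficient PBs numbered 8 in TPM as deposited and after quantile normalization, compared with 5, 6 with only the libraries compared, where Pmaip1 was added (adjusted p = 0.00449 by limma), and 3 to 5 with a library left out. In CreER/CreER PBs they numbered 1 with either scaling, compared with 0, and 0 to 1 with a library left out. In Mist1-deficient PCs, compared with 3, they numbered 1 without a filter on low values, 0 without the trend, 4 after quantile normalization, where Bak1 was added (adjusted p = 0.0475), and 0 to 4 with a library left out. Between control PCs and control PBs, Pmaip1 also lost its call after quantile normalization, without a filter, without the trend and with robust eBayes (adjusted p = 0.0623 to 0.0829). Between both PB mutants they numbered 3 without the trend, compared with 5, and 2 to 6 with a library left out. Differences that did not pass the test changed sign in a few cases. In TPM as deposited these were Mcl1 in Mist1-deficient PCs (-0.00980), Bak1 in the comparison of the Mist1 effect between PCs and PBs (0.000938), and Bcl2l11 (0.12) and Bak1 (0.15) between both PB mutants. After quantile normalization these were Mcl1 in CreER/CreER PBs (-0.0219), Mcl1 (0.0384) and Bak1 (0.0655) in the comparison of the Mist1 effect, and Bcl2l11 (0.0906) and Bak1 (0.11) between both PB mutants. The cause was not tested. With a library left out, 27 changes of sign occurred. In Xbp1-deficient PBs Bcl2l11 ranged from -0.0530 to 0.0858. In CreER/CreER PBs Mcl1 ranged from -0.0272 to 0.13 and Bid from -0.0428 to 0.14. In Mist1-deficient PCs Bcl2 ranged from -0.0505 to 0.28, Mcl1 from -0.0386 to 0.0610, Pmaip1 from -0.25 to 0.34 and Bax from -0.11 to 0.0564. In the comparison of the Mist1 effect Bcl2l1 ranged from -0.0699 to 0.15, Mcl1 from -0.0808 to 0.0337, Bid from -0.0227 to 0.11 and Bak1 from -0.0647 to 0.0510. Between both PB mutants Mcl1 ranged from -0.0381 to 0.12, Bcl2l11 from -0.26 to 0.00580 and Pmaip1 from -0.27 to 0.32. The number of members with a Mist1 region was 10 under each overlap rule and 8 when regions within 2.5 kb of a TSS or in the gene body were counted. No paired analysis was possible because the labels give no replicate numbers that groups share. Small differences of the members are limited by 2 libraries a group and by the unknown depth.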

Other observations

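The genes whose levels ran most closely with those of 4 members were listed over the 10 libraries among 9859 genes with a mean of at least 5 TPM. These values describe the pattern over libraries that share their groups, and no test was made. For Mcl1 they were Blnk (Pearson r = 0.994), Dnajb1 (0.993) and Nrg2 (0.993), for Bcl2 Dph2 (0.990), Xab2 (0.990) and Tbx6 (0.989), for Bcl2l1 Dstn (0.998), 2700029M09Rik (0.997) and Aprt (0.996), and for Bcl2l11 E2f5 (0.976), Klhl26 (0.976) and Sf3b3 (0.976). The ratio of Bax to Bak1, the effector genes, was 2.31 and 2.07 in control PCs, 1.88 and 1.93 in Mist1-deficient PCs, 1.56 and 1.71 in control PBs, 2.01 and 1.97 in Xbp1-deficient PBs and 1.61 and 1.64 in CreER/CreER PBs. In the RefSeq promoter windows of GRCm38.p6, from 250 bases before to 50 after a gene start, 9 of 10 members were matched. The E-box CAGCTG was present in that of Bcl2l11 and in 18.3% of all genes, and CAGGTG in that of Bbc3 and in 22.6%, both strands searched.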
